A study of Mus musculus with 6 samples.

Results

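Serum response factor (Srf), its coactivators myocardin (Myocd), Mrtfa and Mrtfb, the factors Mef2a, Mef2c and Mef2d, the muscle methyltransferase Smyd1 and the homeodomain protein Hopx were followed in hearts of mouse embryos at embryonic day 9.5. The genes were taken by symbol from a table of normalized read counts, where all 9 of the 9 symbols were found among 15330 rows, and all 9 passed the minimum mean of 10. There were 2 genotypes, wildtype and H2-URI d/d, the latter lacking 373 kb of the interval upstream of Hand2 on both alleles, an allele made by CRISPR-Cas9 in mouse embryos, and the study asked how this interval regulates Hand2. Each genotype had 3 libraries of micro-dissected heart, 2 marked F (replicates 1 and 2, taken as female) and 1 marked M (replicate 3, taken as male), and all 6 carried batch number 1. Strain and number of founder lines are not given in the labels. Nor do they say if 1 heart or several went into a library, and p-values therefore refer to the spread between these libraries, which may be technical.

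Srf binds a short sequence called the CArG box in genes of contractile and cytoskeletal proteins and in immediate early genes. On its own it activates weakly, and myocardin, made in heart and smooth muscle, or the broadly expressed Mrtfa and Mrtfb, which actin monomers hold in the cytoplasm, provide the activation domain. Mef2 factors belong to the same MADS-box class, bind an A/T-rich site in muscle genes and are held back by class IIa histone deacetylases. Smyd1 is a methyltransferase of striated muscle that also takes part in thick filament assembly. Hopx has no DNA binding of its own and restrains Srf. Mouse hearts that lack Mef2c or Smyd1 fail to build a normal right ventricle, as do hearts that lack Hand2, the basic helix-loop-helix factor next to the deleted interval.

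The promoters of the regulators were searched for the sequences that Srf and Mef2 factors are known to bind. They were also searched for the E-box CATCTG, which is not one of those sequences. RefSeq promoters (GRCm38.p6, another build than the authors' GRCm39) were held for 8 of the 9 genes, all except Myocd, and the 250 bases before each start site were searched for the CArG box and the MEF2 site, both of which read the same on either strand, and for the E-box CATCTG on both strands. A CArG box was found in 2 of the 8 genes, Srf and Hopx, against 1.5% of the 10699 measured genes with a promoter in the table. A MEF2 site was found in 1, Mrtfb, against 2.07% of those genes. The E-box CATCTG was found in 2, Mrtfb and Mef2c, against 11.7%. The 8 genes had 14 promoters, and a gene counted if any of its promoters held the motif. In Hopx, Mrtfb and Mef2c all matches lay in 1 promoter, and the gene had at least 1 other promoter without a match. No match overlapped another. Srf is shown because it holds a pair of CArG boxes in tandem, starting 82 and 62 bases before its start site (chr17:46556163-46556412, minus strand). The Hopx promoter with a match is shown because its single CArG box starts 83 bases before the start (chr5:77115124-77115373, minus strand). The Mrtfb promoter with matches is shown because its MEF2 site starts 165 bases before the start (chr16:13358171-13358420, plus strand). The promoter of Mef2d is shown because that gene lay nearest to Srf in its change, and none of the motifs was found there (chr3:88142122-88142371, plus strand). Capitals mark the CArG boxes of Srf and Hopx and the MEF2 site of Mrtfb, all 5′ to 3′ on the strand of the gene.
Srf: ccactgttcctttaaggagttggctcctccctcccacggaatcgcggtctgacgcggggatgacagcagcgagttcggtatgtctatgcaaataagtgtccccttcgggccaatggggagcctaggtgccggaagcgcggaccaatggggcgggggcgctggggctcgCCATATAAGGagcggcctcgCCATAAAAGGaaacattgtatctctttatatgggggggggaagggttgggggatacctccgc
Hopx: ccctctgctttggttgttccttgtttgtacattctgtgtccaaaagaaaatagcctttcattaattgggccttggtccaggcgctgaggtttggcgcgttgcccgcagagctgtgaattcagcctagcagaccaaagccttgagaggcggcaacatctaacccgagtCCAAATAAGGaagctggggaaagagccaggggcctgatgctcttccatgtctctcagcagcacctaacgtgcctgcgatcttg
Mrtfb: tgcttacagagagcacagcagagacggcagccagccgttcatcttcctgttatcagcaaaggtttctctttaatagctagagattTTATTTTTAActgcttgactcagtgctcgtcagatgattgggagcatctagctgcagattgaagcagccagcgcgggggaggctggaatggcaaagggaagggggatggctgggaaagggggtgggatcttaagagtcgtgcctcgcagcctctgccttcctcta
Mef2d: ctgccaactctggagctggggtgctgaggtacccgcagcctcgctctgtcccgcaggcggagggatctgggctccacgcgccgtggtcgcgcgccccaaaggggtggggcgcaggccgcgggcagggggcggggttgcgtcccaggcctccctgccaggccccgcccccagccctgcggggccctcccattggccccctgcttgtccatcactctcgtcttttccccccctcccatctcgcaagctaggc
A match is a run of letters and not a measured binding site, and a window without a match holds only this stretch of each gene.

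The libraries held between 25583210 and 32043595 reads over the measured genes. Hand2 was lower in all 3 deletion libraries, at 27.6% of the wild-type mean (log2 fold change −1.85, SE 0.081, adjusted p = 1.51e-05, limma with Benjamini-Hochberg adjustment over all genes). In 4 of the 6 cases the file record places a column under the opposite genotype to the one whose title carries its code. The code was followed here, and under the record Hand2 had a log2 fold change of 0.57 and 0 genes passed, with 414 at an unadjusted p under 0.05, in limma. Erythroid transcripts differed widely within groups: the summed normalized counts of 6 erythroid genes ranged from 117087 to 341149 in wild-type and from 82732 to 439580 in deletion libraries. The heart muscle label held in each library, with 8 cardiomyocyte genes summing to 423379 to 466440 in wild-type and 451488 to 500529 in deletion hearts, and 0 of the 8 called. At an unadjusted p under 0.05 in limma, 2 were higher (Myh6 and Ryr2) and 1 lower (Tnni1), against 10.2% and 11.2% of all genes. Groups did not overlap for 4 of the 8, all higher in the deletion, against 12.9% of all genes. None of 5 skeletal myoblast genes (Myf5, Myod1, Myog, Pax7 and Mymk) was among the rows analysed here.

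Across the 9 regulators 1, Srf, passed an adjusted p of 0.05, and it was higher in the deletion. Over all genes 3.05% passed, 1.55% higher and 1.5% lower, and a single call among 9 genes is too few to set against that share. Higher calls made up 50.7% of all calls here, 65.3% when libraries were scaled to equal totals with haemoglobin left out, 40.8% when a length and GC trend was taken out and 34.3% in the 4 female libraries. At an unadjusted p under 0.05 there were 2 of 9, Srf and Mef2d, both higher, against 21.4% of all genes in either direction and 10.2% higher. The groups did not overlap for 3 of 9, Srf, Mef2d and Mrtfa, all higher in the deletion, against 27.4% of all genes in either direction and 12.9% higher. An exact two-sided permutation test gave p = 0.1 for each of these 3, the smallest that 3 against 3 allows. The other 6 had groups that overlapped. In bulk hearts, fewer cells of a type and less RNA per cell cannot be told apart.

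**Figure D1:**
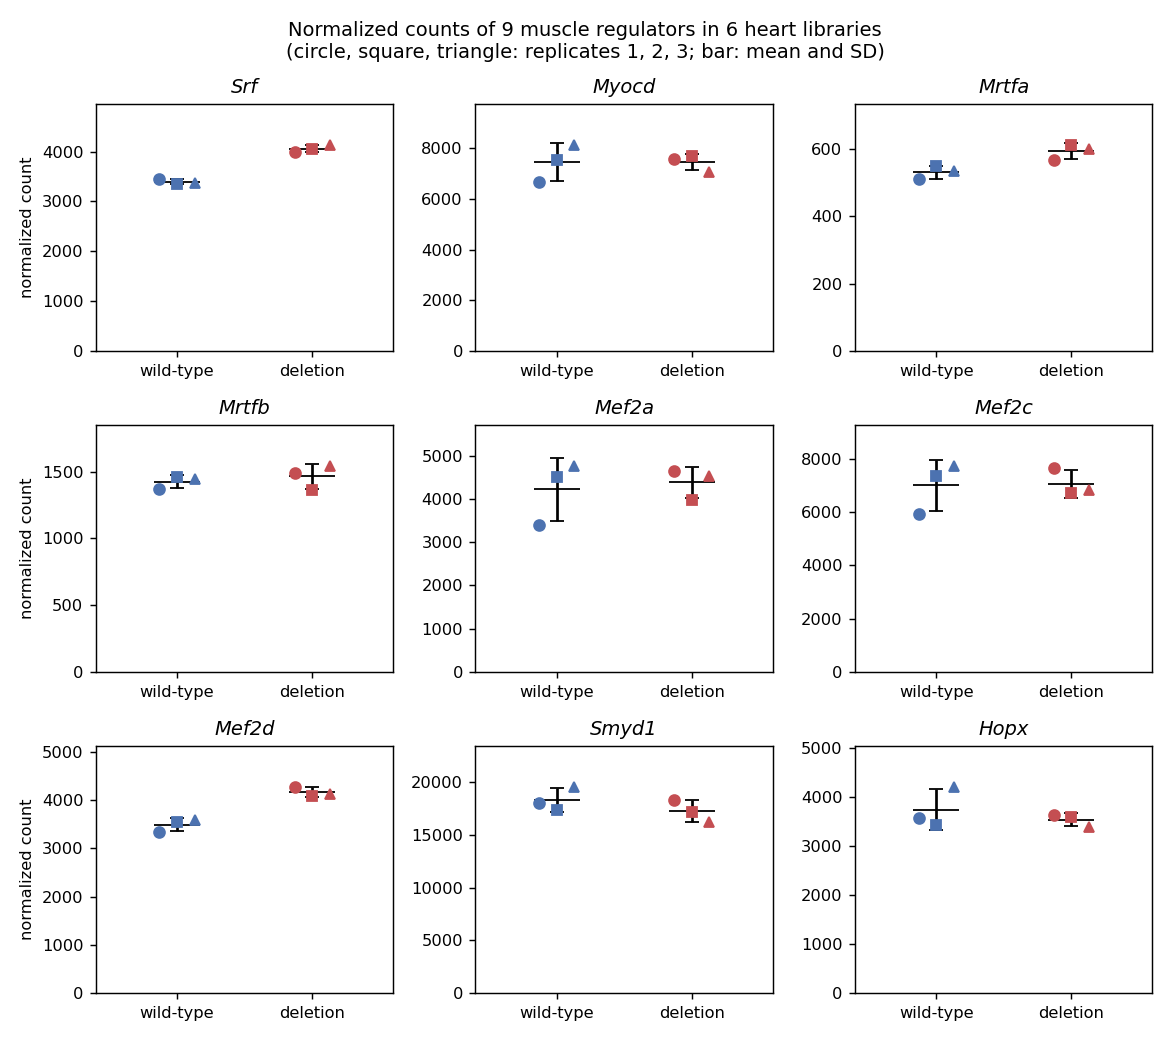
Normalized counts (vertical axes from 0, a separate scale for each gene) of the 9 regulators in wild-type (blue) and deletion (red) hearts, with circles, squares and triangles for replicates 1, 2 and 3 and bars for the mean and SD. Srf, Mef2d and Mrtfa have no overlap between groups. Wild-type replicate 1 is the lowest of all 6 libraries for Myocd, Mef2a and Mef2c, and also for Mef2d and Mrtfa.

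Per kilobase of exon, Smyd1 stood highest and the Mrtf genes lowest in wild-type hearts. The normalized count per kb was 4027 ± 252 (SD, n = 3) for Smyd1, 2465 ± 276 for Hopx, 1452 ± 146 for Myocd, 1298 ± 20.9 for Srf, 957 ± 132 for Mef2c, 741 ± 128 for Mef2a, 598 ± 23.3 for Mef2d, 159 ± 5.14 for Mrtfb and 112 ± 4.14 for Mrtfa. The order was the same with the longest transcript in place of all exons. Neighbours whose wild-type libraries overlapped were Myocd and Srf, Mef2c and Mef2a, and Mef2a and Mef2d. Those that did not overlap were Smyd1 and Hopx, Hopx and Myocd, Mef2d and Mrtfb, and Mrtfb and Mrtfa. Srf and Mef2c did not overlap either. In deletion hearts Srf, at 1530, 1546 and 1581 per kb, lay above Myocd, at 1478, 1501 and 1381, in every library. Among 14856 genes with a known transcript length, the wild-type level per kb of Smyd1 was higher than that of 98.1% and that of Mrtfa higher than that of 38.8%.

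**Figure D2:**
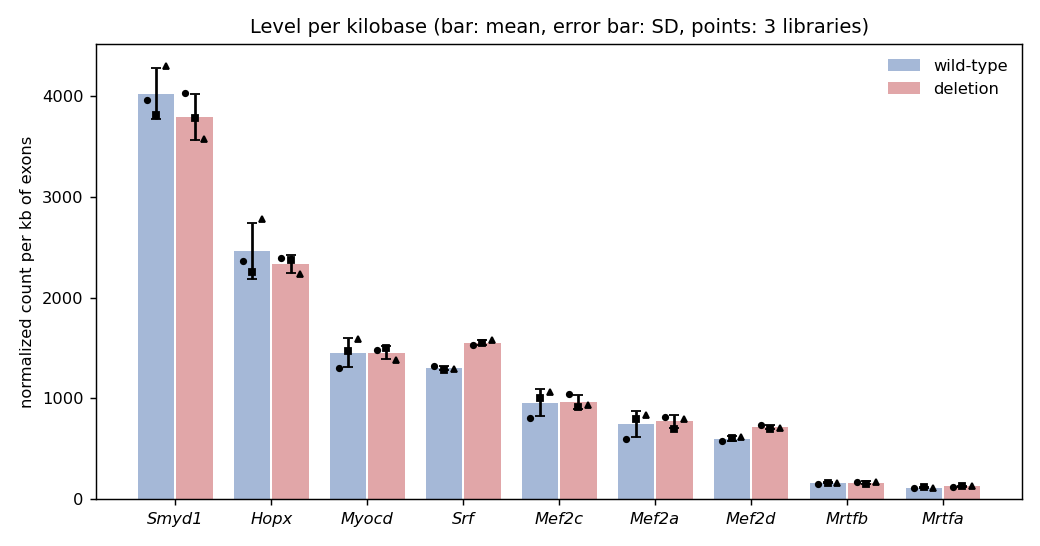
Normalized count per kilobase of exon (vertical axis, from 0) for the 9 regulators in order of the wild-type mean, with bars for the mean of 3 libraries, error bars for the SD and points for the libraries. Smyd1 is highest at 4027 per kb in wild-type hearts and Mrtfa lowest at 112, and the mean of Srf is below that of Myocd in wild-type and above it in deletion hearts.

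Srf, the DNA-binding partner of the coactivators, held 3459, 3358 and 3371 normalized counts in wild-type hearts, in the order of the replicate numbers used throughout, against 4002, 4045 and 4135 in deletion hearts. Every deletion library lay above every wild-type library, and the libraries within a group lay close together. The mean was 119.6% of wild-type, a log2 fold change of 0.26 (SE 0.056, 95% interval 0.13 to 0.38, adjusted p = 0.0418, limma). The coefficient of variation between wild-type libraries was 1.61%, lower than that of all but 4.09% of the 5850 genes with a mean of at least 1000, where the median was 7.07%. The call ended without wild-type replicate 3 (adjusted p = 0.125, limma) and without deletion replicates 1, 2 or 3 (0.151, 0.170 and 0.157), while the fold change stayed between 0.24 and 0.27. In the 4 female libraries the log2 fold change was 0.24 (adjusted p = 0.327, limma).

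Transcript GC content and length were read beside this result. The Srf transcript has a GC content of 64.4%, against a median of 49.7% over all genes, and a length of 2616 bases, against a median of 3180. With a trend on transcript length and GC taken out of each library, Srf stood at 0.086 on the log2 scale (adjusted p = 0.483, limma), and 0 of the 9 regulators passed. Mef2d, with a GC content of 55.0%, went from 0.25 to 0.16 (adjusted p = 0.194, limma) and Mrtfa, at 58.6%, from 0.16 to 0.026 (adjusted p = 0.888, limma). Hopx, at 46.4%, went from −0.073 to 0.067 and did not pass in either fit. The 3 genes whose groups did not overlap were the 3 of highest GC content among the 9. The part of GC content in these differences was not tested. A fit of this kind cannot tell a technical trend from a change in the hearts that follows GC content or length.

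Among the coactivators, Myocd held 6650, 7546 and 8132 normalized counts in wild-type hearts against 7578, 7695 and 7079 in deletion hearts. The deletion values all fell inside the wild-type range. Its log2 fold change was 0.0056 with a 95% interval from −0.18 to 0.19 (SE 0.082, adjusted p = 0.980, limma), so a change inside that interval remained possible. The interval is not a limit of detection, and a larger change could also have missed the adjusted threshold. The value was −0.073 without wild-type replicate 1.

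Mrtfa, which carries the actin signal to Srf in many cell types, held 510, 548 and 535 normalized counts in wild-type hearts against 567, 612 and 600 in deletion hearts. The groups did not overlap, with the lowest deletion value close above the highest wild-type value. The log2 fold change of 0.16 (SE 0.080, 95% interval −0.021 to 0.34) did not pass (adjusted p = 0.287, limma). Mrtfb, its paralogue, held 1372, 1456 and 1448 in wild-type hearts against 1486, 1364 and 1543 in deletion hearts. Those groups overlapped, and the deletion group held both the lowest and the highest of the 6 values. Mrtfb had a log2 fold change of 0.038 (SE 0.071, 95% interval −0.12 to 0.20, adjusted p = 0.803, limma).

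Per kb of exon, Myocd made up 84.2% ± 0.993 (SD, n = 3) of the summed level of the 3 coactivators in wild-type and 83.4% ± 1.06 in deletion hearts. Mrtfa and Mrtfb had 6.55% and 9.24% of it in wild-type hearts against 7.21% and 9.37% in deletion hearts. The wild-type and deletion shares of Myocd overlapped. Of 7 ratios of levels per kb between regulators computed within each library, 3 did not overlap between groups, all with Srf as the divisor. Srf alone did not overlap between groups, while Myocd, Mrtfb and Hopx did, so these 3 ratios carry the Srf difference and are not separate results. Mrtfa over Srf overlapped. Myocd over Srf was 0.981, 1.146 and 1.231 in wild-type hearts against 0.966, 0.971 and 0.873 in deletion hearts. Mrtfb over Srf was 0.115, 0.126 and 0.125 in wild-type hearts against 0.108, 0.0981 and 0.109 in deletion hearts. Hopx over Srf was 1.79, 1.76 and 2.16 in wild-type hearts against 1.56, 1.54 and 1.41 in deletion hearts. Every deletion library lay below every wild-type library in these 3 ratios. They were looked at after the values were seen and carry no test.

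Mef2c, the Mef2 factor that the early heart depends on, held 5906, 7353 and 7728 normalized counts in wild-type hearts against 7645, 6693 and 6807 in deletion hearts. The deletion libraries lay within the wild-type range, whose lowest value was replicate 1. Mef2c had a log2 fold change of 0.018 (SE 0.10, 95% interval −0.21 to 0.25, adjusted p = 0.940, limma), and −0.099 without wild-type replicate 1. Mef2a held 3390, 4507 and 4765 in wild-type hearts against 4657, 3982 and 4523 in deletion hearts. It overlapped in the same way, with 0.068 on the log2 scale (SE 0.12, 95% interval −0.20 to 0.34, adjusted p = 0.789, limma), and −0.082 without wild-type replicate 1.

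Mef2d, the broadly expressed member, held 3342, 3545 and 3600 normalized counts in wild-type hearts against 4282, 4085 and 4135 in deletion hearts. All deletion values lay above all wild-type values, at 119.2% of the wild-type mean. The log2 fold change of 0.25 (SE 0.060, 95% interval 0.12 to 0.39, an interval not adjusted for the number of genes) missed the threshold (adjusted p = 0.0546, limma). It passed after quantile normalization (log2 fold change 0.28, adjusted p = 0.0280, limma) and with equal totals apart from haemoglobin (0.30, adjusted p = 0.0295, limma). The median log2 fold change of all genes was −0.0019 and 0.038 in these settings, against −0.0073 as reported, so equal totals raised genes in general. The 3 Mef2 genes ranked the libraries alike within each group. Replicate 1 was lowest and replicate 3 highest among wild-type, and replicate 2 lowest and replicate 1 highest among deletion libraries. Genes outside the family had the same order, among them Rock1, Cfl2 and Ppp3r1, so it is not particular to the Mef2 genes. Per kb, Mef2c made up 41.6% ± 0.636 (SD, n = 3) of the summed level of the 3 in wild-type and 39.4% ± 1.02 in deletion hearts, Mef2d 26.2% ± 2.37 and 29.2% ± 0.997, and Mef2a 32.1% ± 1.74 and 31.4% ± 1.21. The Mef2c share did not overlap between groups, and those of Mef2d and Mef2a did. Mef2c alone overlapped between groups while Mef2d did not, so the Mef2c share takes in the Mef2d difference and is not a separate result. These shares carry no test.

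**Figure D3:**
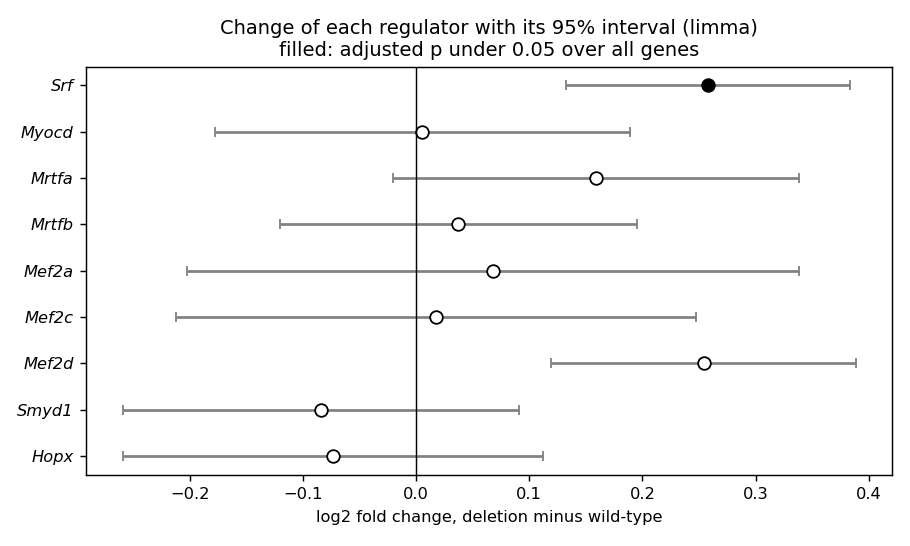
Log2 fold change, deletion minus wild-type (horizontal axis), for each regulator, with 95% intervals from limma that are not adjusted for the number of genes, filled where the adjusted p over all genes is under 0.05. Srf at 0.26 is the 1 filled point, Mef2d at 0.25 lies beside it, and the intervals of the other 7 include 0.

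Smyd1 was the most abundant of the 9, with 18005, 17337 and 19573 normalized counts in wild-type hearts against 18348, 17195 and 16266 in deletion hearts. The groups overlapped, and the lowest value was deletion replicate 3. Smyd1 had a log2 fold change of −0.084 (SE 0.078, 95% interval −0.26 to 0.091, adjusted p = 0.575, limma). Hopx held 3581, 3420 and 4211 in wild-type hearts against 3629, 3600 and 3389 in deletion hearts. Wild-type replicate 3 stood above the other 5 libraries, which lay close together. Hopx had a log2 fold change of −0.073 (SE 0.083, 95% interval −0.26 to 0.11, adjusted p = 0.651, limma) with all libraries, and 0.016 without wild-type replicate 3. Smyd1 and Hopx also ranked the libraries alike. Replicate 2 was lowest and replicate 3 highest among wild-type, and replicate 3 lowest and replicate 1 highest among deletion libraries. Myl2, a myosin light chain gene named after its values were seen, had the same order, so it is not particular to Smyd1 and Hopx. Within each group the summed erythroid counts ran in the reverse of this order. The part of erythroid content in it was not tested.

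Of 17 genes of Srf cofactors and actin signalling, all of them measured, 1 fell, 0 rose and 16 did not pass (median log2 fold change 0.0056, against −0.0073 over all genes tested, and 5.88% called). Over all genes 3.05% were called, and a single call among 17 is too few to set against that share. The gene that fell was Abra, a striated muscle actin-binding protein, also called STARS, that promotes nuclear entry of the Mrtf proteins. It held 826, 704 and 989 normalized counts in wild-type hearts against 596, 523 and 460 in deletion hearts. No deletion library reached the lowest wild-type library, and the difference on the log2 scale was −0.67 (SE 0.14, adjusted p = 0.0325, limma). The call ended without wild-type replicate 3 (adjusted p = 0.107) and without deletion replicates 1, 2 or 3 (0.0514, 0.137 and 0.127, limma), and the log2 fold change was −0.45 in the 4 female libraries.

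Of 33 Srf targets of the actin cytoskeleton, all of them measured, 3 rose, 1 fell and 29 did not pass, which is 12.1% called against 3.05% of all genes. The median log2 fold change was 0.10, against −0.0073 over all genes tested, and at an unadjusted p under 0.05 there were 11 higher and 1 lower, against 10.2% and 11.2% of all genes. The genes that rose were Lmod1, Mylk and Tpm2. Lmod1, a leiomodin that nucleates actin filaments in smooth muscle, held 1455, 1377 and 1458 normalized counts in wild-type hearts against 1768, 1888 and 1744 in deletion hearts, a log2 fold change of 0.33 (SE 0.065, adjusted p = 0.0291, limma). Mylk, the myosin light chain kinase, held 287, 313 and 313 in wild-type hearts against 416, 392 and 478 in deletion hearts, 0.49 higher on the log2 scale (SE 0.11, adjusted p = 0.0417, limma). For neither gene did the groups overlap. Tpm2, a tropomyosin, held 3167, 3355 and 3122 in wild-type hearts against 4105, 4150 and 3661 in deletion hearts, 0.30 higher on the log2 scale (SE 0.069, adjusted p = 0.0496, limma).

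The gene that fell in this list was Fhl1, a LIM-domain protein of striated muscle, with 6684, 6715 and 6691 normalized counts in wild-type hearts against 5611, 5522 and 5140 in deletion hearts. The wild-type libraries nearly coincided and the deletion libraries all lay below them, with a log2 fold change of −0.31 (SE 0.061, adjusted p = 0.0310, limma). None of the 6 actins was called. The log2 fold change was 0.025 for Actc1, the cardiac actin, −0.0027 for Acta2, the smooth muscle actin expressed in the early heart, 0.10 for Acta1, 0.083 for Actg1 and 0.0059 for Actb, with overlap between groups for each. Actg2, the enteric smooth muscle actin, was the least abundant, at 72.6, 43.6 and 51.2 normalized counts in wild-type hearts against 39.1, 39.0 and 38.9 in deletion hearts, which did not overlap (log2 fold change −0.48, adjusted p = 0.278, limma). The actins were singled out after their values were seen. The number of called genes in this list was 1 without wild-type replicate 3, 0 without deletion replicate 1, 2 or 3, and 1 in the 4 female libraries, fits that have fewer libraries. In both fits with 1 call it was not one of the 4 genes above but Ccn2, a secreted matrix protein named after its values were seen. Ccn2 had a log2 fold change of 0.74 with all libraries (adjusted p = 0.0791, limma), 1.01 without wild-type replicate 3 (adjusted p = 0.00723, limma) and 0.95 in the female libraries (adjusted p = 0.0477, limma). With the length and GC trend taken out, Lmod1 (log2 fold change 0.27, adjusted p = 0.0410, limma) and Fhl1 (−0.30, adjusted p = 0.0194) passed. Mylk (0.38, adjusted p = 0.0788, limma) and Tpm2 (0.29, adjusted p = 0.0517) did not. Mylk and Tpm2 did not pass without wild-type replicate 1 either (adjusted p = 0.0589 and 0.0535, limma). With quantile normalization, and with equal totals apart from haemoglobin, 5 genes of the list were higher and 1 lower. Smtn and Ccn1 joined the 3 above. The list median in these settings was 0.17 and 0.15, against −0.0019 and 0.038 over all genes.

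Markers of cell types were read beside these genes. All 6 smooth muscle markers (Acta2, Tagln, Cnn1, Myh11, Smtn and Lmod1) are also among the 33 genes above, so they add no separate reading. Of these 6, 1, Lmod1, rose, with 2 higher at an unadjusted p under 0.05 in limma and a median log2 fold change of 0.21. They summed to 120601 to 144444 normalized counts in wild-type and 131387 to 146944 in deletion hearts. The largest was Acta2, with means of 100689 in wild-type and 100305 in deletion hearts. Of 5 epicardial markers 0 were called, with 3 higher at an unadjusted p under 0.05, and their sum was 1407 to 2244 in wild-type and 2027 to 3401 in deletion hearts. Over all genes 3.05% were called and 10.2% were higher at that unadjusted p, and these marker lists are too short to set against those shares. Of 6 endocardial and endothelial markers 1, the receptor Tek, was lower, with sums of 15585 to 16552 and 15027 to 15533. Emcn, named after its values were seen, just missed the threshold (log2 fold change −0.39, adjusted p = 0.0505, limma), with no overlap between groups. The median of these 6 was −0.0019. Of 5 measured neural crest and mesenchyme markers 1, Twist1, was lower (sums of 2984 to 4380 and 3036 to 3712, Sox10 not among the rows). Among markers of pharyngeal epithelium, neural tube and macrophages, 0 of 8 measured genes were called, and none summed above 873 in any library. Every measured marker had reads in all 6 libraries. The part of these cells in the results on Lmod1, Mylk, Tpm2 and Fhl1 was not tested.

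Of the 33 actin cytoskeleton genes, 26 had a promoter in the table. Among these 26, 7 held a CArG box within the 250 bases before the start. That is a share of 26.9%, against 1.5% of the 10699 measured genes with a promoter. The list was chosen as Srf targets, so this share may follow from that choice and is not a result of these data. The boxes are shown, on the strand of the gene, because they are of the kind that Srf binds, and they differ from one another only in the central A and T bases.
Acta1: CCAAATATGG
Actc1: CCAAATAAGG
Actg1: CCATATATGG
Cnn2: CCTTATAAGG
Myl9: CCTAATAAGG
Vcl: CCTTATAAGG
Fhl1: CCTAAAATGG
In the order above they start at chr8:123894839, chr2:114052913, chr11:120348576, chr10:79988544, chr2:156775303, chr14:20929171 and chrX:56779581 (RefSeq, GRCm38.p6). The boxes of Cnn2 and Vcl have the same letters. Of these 7 genes 1, Fhl1, was called, and it was lower. The other 6 had log2 fold changes from 0.025 for Actc1 to 0.12 for Vcl, the focal adhesion protein vinculin, none past the threshold. The CArG box of Actc1 has the same letters as that of Hopx.

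Of 9 measured genes among 14 immediate early Srf targets, 1 rose, 0 fell and 8 did not pass (median log2 fold change 0.18, and 11.1% called). Over all genes the median was −0.0073 and 3.05% were called, and a single call among 9 is too few to set against that share. Ier3 held 126, 108 and 133 normalized counts in wild-type hearts against 216, 209 and 228 in deletion hearts, with no overlap between groups. On the log2 scale the difference was 0.83 (SE 0.13, adjusted p = 0.0131, limma), and it did not pass without deletion replicates 1, 2 or 3 (adjusted p = 0.0610, 0.0663 and 0.0608, limma). Fos and Egr1, immediate early genes named after their values were seen, had log2 fold changes of 0.34 and 0.18, neither past the threshold.

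Of 17 listed Mef2 regulators 16 were measured, and 0 passed in limma, with 3 higher and 1 lower at an unadjusted p under 0.05 (median log2 fold change 0.030). Over all genes 10.2% were higher and 11.2% lower at that unadjusted p, and counts this small are too few to set against those shares. Hdac9, a class IIa histone deacetylase that represses Mef2, held 893, 934 and 1192 normalized counts in wild-type hearts against 783, 706 and 819 in deletion hearts. The groups did not overlap, at −0.38 on the log2 scale (adjusted p = 0.102, limma), and with the length and GC trend taken out it passed at −0.41 (adjusted p = 0.0462, limma). Hdac7, the class IIa member known from endothelium, held 1135, 1159 and 996 in wild-type hearts against 1252, 1396 and 1262 in deletion hearts, which did not overlap. Its difference on the log2 scale was 0.25 (adjusted p = 0.121, limma), and 0.087 with the length and GC trend taken out (adjusted p = 0.474, limma).

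Of 18 listed striated muscle Mef2 targets 17 were measured, and 1 rose, 0 fell and 16 did not pass, which is 5.88% called. Against 3.05% of all genes, a single call among 17 is too few to compare. The median log2 fold change was 0.044. That median hung on single libraries: leaving out wild-type replicate 2 turned it to −0.025, leaving out wild-type replicate 3 raised it to 0.104, dropping deletion replicate 1 gave 0.011, dropping deletion replicate 3 gave 0.073, and the 4 female libraries gave 0.143. Slc2a4, the insulin-responsive glucose transporter, held 390, 425 and 358 normalized counts in wild-type hearts against 507, 528 and 568 in deletion hearts. The groups did not overlap, with a log2 fold change of 0.45 (SE 0.10, adjusted p = 0.0411, limma). It did not pass without wild-type replicate 3 or any 1 deletion replicate (adjusted p = 0.133, 0.111, 0.159 and 0.149, limma). Myoz2, a Z-disc protein named after its values were seen, held 221, 205 and 307 in wild-type hearts against 400, 357 and 553 in deletion hearts. It lay just outside the threshold (log2 fold change 0.83, SE 0.19, adjusted p = 0.0505, limma), with no overlap between groups, and passed in 7 of the 19 alternatives that keep the groups, among them sex as a covariate (adjusted p = 0.00918, limma). Other sarcomere genes of the list, also named after their values were seen, lay on either side of 0 and did not pass. Myh6, the atrial myosin heavy chain, was at 0.29 with no overlap between groups, Lmod2, a leiomodin of striated muscle, at 0.23, Myl2, the ventricular myosin light chain, at −0.11 and Tnnc1, a troponin, at −0.16, the last 3 with overlap.

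Of 15 partners and regulators of Smyd1 and Hopx, 0 passed in limma, with 2 higher and 3 lower at an unadjusted p under 0.05 (median log2 fold change −0.042). The shares of all genes at that unadjusted p were 10.2% higher and 11.2% lower, and these counts are too few to set against them. The chaperone gene Hsp90aa1, whose protein works with myosin chaperones, held 45697, 44997 and 47888 normalized counts in wild-type hearts against 38995, 39317 and 40209 in deletion hearts, −0.23 on the log2 scale (adjusted p = 0.137, limma). Hdac1, a class I histone deacetylase, held 5655, 4882 and 5077 in wild-type hearts against 4658, 4627 and 4280 in deletion hearts, −0.20 on the log2 scale (adjusted p = 0.153, limma). For both genes the groups did not overlap.

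**Figure D4:**
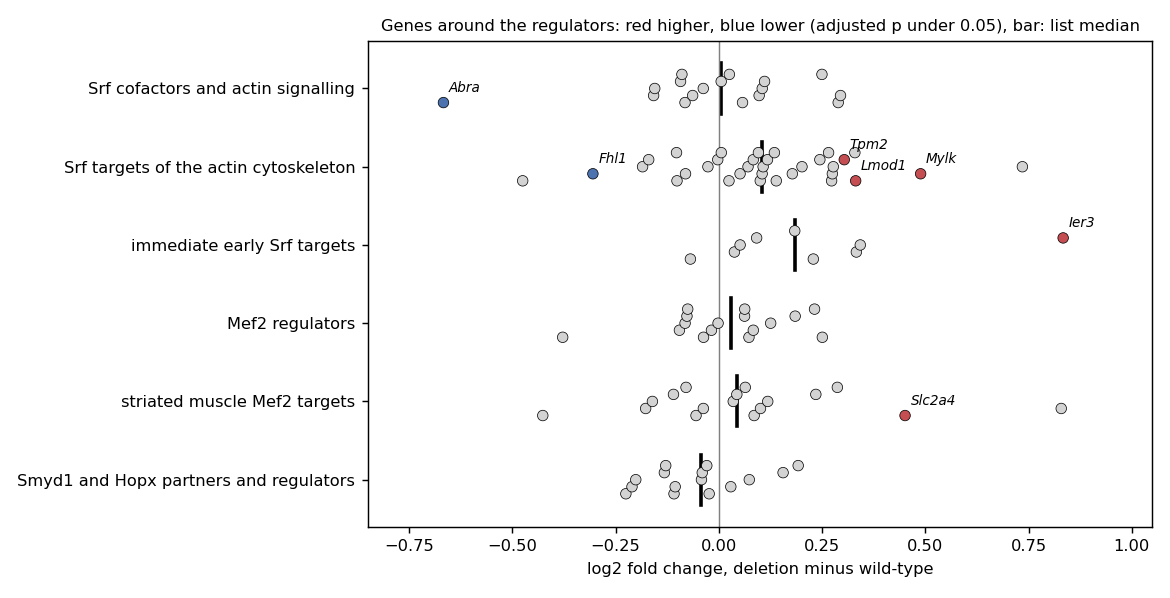
Log2 fold change, deletion minus wild-type (horizontal axis), of each measured gene in 6 lists around the regulators, with red for genes called higher, blue for genes called lower, grey for the rest and a bar at the list median. The actin cytoskeleton targets have 3 red and 1 blue points around a median of 0.10, and 2 of the lists, Mef2 regulators and the partners of Smyd1 and Hopx, have no coloured point.

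Genes whose pattern over the 6 libraries was most like that of a regulator were ranked by Pearson r of log2 values, as a description over libraries that differ in group. For Srf these were C2cd5, Six5 and Ripor2 (r of 0.997, 0.996 and 0.995), among 424 genes with r above 0.9. Ripor2 rose in the deletion by 1.13 on the log2 scale (adjusted p = 0.00377, limma), and C2cd5 and Six5 did not pass at 0.21 and 0.30. For Myocd the nearest genes were Ptgr2, Ipmk and Slc43a2 (0.995, 0.979 and 0.978), among 72 genes with r above 0.9. For Mef2c they were Selenoi, Zfp281 and Apc (0.996, 0.992 and 0.991), among 291 such genes. For Smyd1 they were Clic4, Carhsp1 and Mcee (0.991, 0.991 and 0.987), among 101 such genes.

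**Figure D5:**
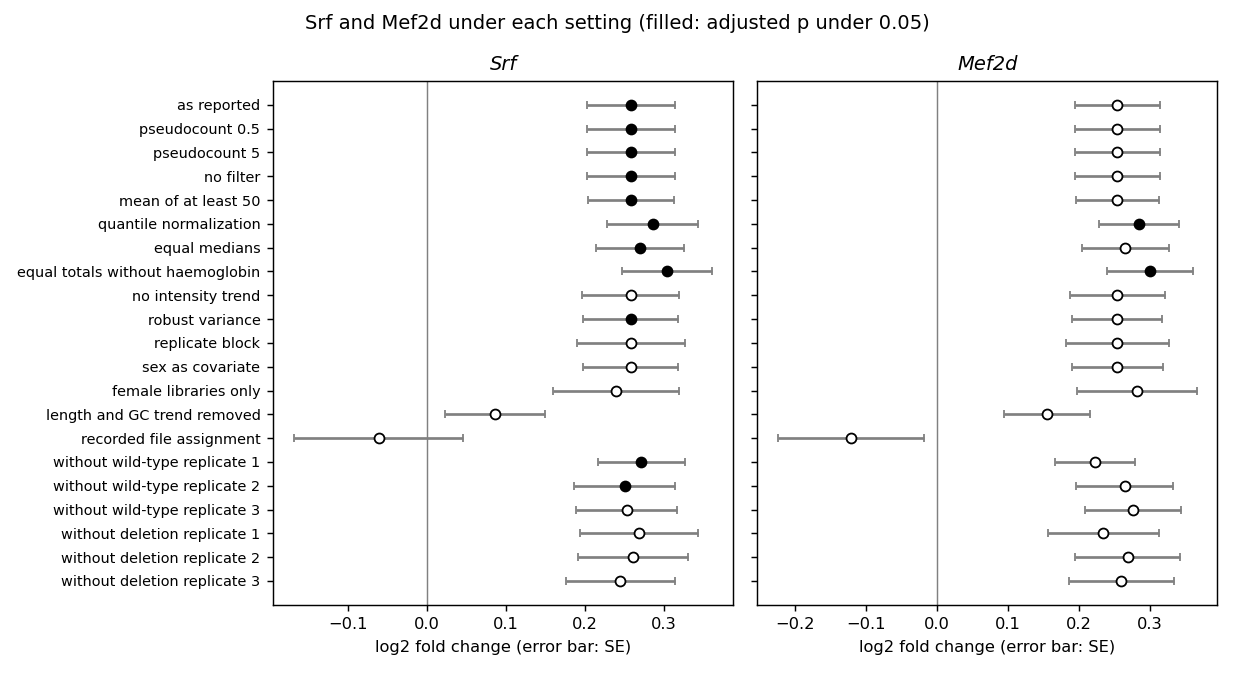
Log2 fold change (horizontal axis, error bar SE) of Srf and Mef2d as reported and under each other setting, filled where the adjusted p is under 0.05. Srf is filled in 10 of the 19 settings that keep the groups and Mef2d in 2, and both lie to the right of 0 in all 19, while under the recorded file assignment they lie at −0.061 and −0.12.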

How the data were processed

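RNA was read from 6 libraries of embryonic heart, 3 wild-type and 3 deletion, made from 300 ng of total RNA with a stranded poly(A) kit, per the labels' protocols. Named in the submitters' processing notes are the builds GRCm39 and mm39 and the tools STAR 2.7.9a, DESeq2 1.30.1, bcl2fastq 2.20, Subread 2.0.1 and featureCounts. No source used here states the annotation, the strand setting or the gene filter. Each deposited value is a normalized count (a signal, with read counts scaled by the authors per library). In each column 100% of values were whole multiples of 1 value within 0.01, taken as 1 read, which gave the depths.

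Groups were compared with limma (version 3.58.1 in R 4.3.3, with an intensity trend) on values of log2(normalized count + 1), two-sided, Benjamini-Hochberg adjusted over all 15330 genes, threshold 0.05. Fold changes are on that scale. The minimum mean of 10 removed 0 genes. The test was tried on simulated counts. Lengths and GC content came from GENCODE M21 on GRCm38, known for 96.9% of genes. The counting of reads was done by the authors on another build, so levels per kb are approximate.

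The 9 genes, the 6 gene lists and the marker lists were chosen with earlier results of these data known. The text names the 9 genes, Hand2, up to 4 called genes of each list by smallest p or, where none was called, up to 2, the 3 genes most like each of Srf, Myocd, Mef2c and Smyd1 among genes with a mean of at least 50, and others said to be named after their values were seen. Alternatives covered the pseudocount, filter, scaling, variance model, sex, a replicate block, a length and GC trend (splines with 4 degrees of freedom), the recorded file assignment and each library left out.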

Additional observations from a re-analysis of the deposited data

How the results depend on the processing

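Over 19 alternatives that kept the groups, Hand2 passed in all and Srf in 10, with log2 fold changes of Srf from 0.086 to 0.30. Against 467 genes called, 146 were called without an intensity trend, 206 with the replicate block, 35 in the female libraries and 103 to 1161 with each library left out in turn (103 without deletion replicate 2, 1161 without wild-type replicate 2). Those 6 fits called 0 to 1 of the regulators, 0 to 4 of the Srf actin targets and 0 to 1 of the striated muscle Mef2 targets. The number of the 9 regulators called was 2 after quantile normalization and after equal totals without haemoglobin. It was 0 without an intensity trend, with the replicate block, with sex as a covariate, in the female libraries and with the length and GC trend taken out. The number of Srf actin targets called, 4 in the report, was 0 without an intensity trend and with the replicate block, 1 in the female libraries and 6 with quantile normalization and with equal totals without haemoglobin. The number of striated muscle Mef2 targets called, 1 in the report, was 2 with a pseudocount of 5, with equal totals without haemoglobin, with a robust variance and with the length and GC trend taken out, and 0 without an intensity trend and in the female libraries. Under the recorded file assignment 0 genes, 0 regulators and 0 targets of either list were called, with log2 fold changes of 0.57 for Hand2, −0.061 for Srf, −0.14 for Myocd, −0.049 for Mrtfa, −0.12 for Mef2a, −0.14 for Mef2c and −0.12 for Mef2d. Signs of values that did not pass also turned with the length and GC trend taken out (Myocd −0.031, Mrtfb −0.035, Mef2c −0.0021, Hopx 0.067) and in the female libraries (Smyd1 0.0076, Hopx 0.047). With each library left out, log2 fold changes ranged from −0.073 to 0.072 for Myocd, −0.0012 to 0.088 for Mrtfb, −0.082 to 0.16 for Mef2a, −0.099 to 0.095 for Mef2c and −0.13 to 0.016 for Hopx. List medians ranged, with each library left out, from −0.024 to 0.042 for Srf cofactors, 0.078 to 0.15 for Srf actin targets, 0.069 to 0.23 for immediate early targets, 0.00063 to 0.054 for Mef2 regulators, −0.025 to 0.10 for striated muscle Mef2 targets and −0.12 to −0.024 for the partners of Smyd1 and Hopx. With the length and GC trend taken out the medians of Srf cofactors and Mef2 regulators were −0.032 and −0.025. With equal totals the median of the partners was 0.0038, against 0.038 over all genes. The cause was not tested, beyond the fewer libraries of the smaller fits.

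The replicate numbers are shared between groups, but same-numbered libraries did not deviate together (correlations of −0.03, −0.11 and −0.10 for replicates 1, 2 and 3), so the numbers were not taken as pairs. None correlated best with its own number. The log2 fold change of Srf stayed at 0.26 with the replicate block (adjusted p = 0.112, limma), without an intensity trend (0.123) and with sex as a covariate (0.0684). edgeR and DESeq2 were planned on recovered reads and were not run, since in some columns no value equals a single read.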
